A study of Mus musculus with 2 samples.

Results

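The genes described here are the cytoplasmic actins Actb and Actg1, the cofilins Cfl1 and Cfl2, the profilins Pfn1 and Pfn2, the beta-thymosins Tmsb4x and Tmsb10, and drebrin (Dbn1). They are 9 of the 55536 annotated genes in the deposited tables and were taken by name, not by measured values. Total RNA was sequenced from the left cerebral cortex of 2 female mice of the B6CASTF1/J hybrid strain, aged 10 days and untreated as far as the labels say. Each animal gave 1 library from 300 ng of RNA, to which ERCC spike-ins were added, and both libraries form 1 group (n = 2). There is no control group, so all comparisons are between genes, between transcripts, between the 2 libraries, or between the 2 sets of abundance estimates that the authors deposited for each library.

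Actin is a small protein that assembles from monomers into filaments, and the turnover of these filaments moves growth cones and shapes dendritic spines in the developing cortex. The partners of actin act at different steps of this cycle. Beta-thymosins hold monomers in reserve, profilins hand monomers to growing filament ends, cofilins sever and disassemble old filaments, and drebrin binds along the sides of filaments in dendrites and spines. Drebrin is made as a short form, drebrin E, which is typical of the embryonic brain, and as a longer neuronal form, drebrin A, which gains 1 exon as neurons mature.

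The libraries held 29990965 and 31156256 expected reads by alignment, and 31051988 and 31841570 estimated reads without alignment. Markers of cortical excitatory neurons were present in both libraries, led by Slc17a7, the vesicular glutamate transporter of cortical neurons, at 511 ± 14.4 TPM (SD, n = 2), where TPM is a level per unit of transcript length and per total of all transcripts. Of the skeletal muscle genes, Ckm and Mylpf stayed under 1 TPM in both libraries and Acta1 stood at 3.49 and 3.66 TPM. Of the heart muscle genes, Actc1 stayed under 1 TPM in both and Myh6 stood at 1.10 and 0.600 TPM. No test was run: with 2 samples of 1 group the smallest two-sided p of an exact permutation test is 0.5. The SDs describe 2 animals that nothing in the labels places in separate or shared litters.

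The exon that separates the drebrin forms is shown first, because it defines drebrin A in the transcript models compared below. It lies in Dbn1 on the minus strand at chr13:55476636-55476773 (mm10) and is 138 bases long, or 46 codons, and coding throughout. Capitals mark this exon and lower case the 20 bases of the flanking exons, taken from the M21 transcripts.
drebrin A (Dbn1-201): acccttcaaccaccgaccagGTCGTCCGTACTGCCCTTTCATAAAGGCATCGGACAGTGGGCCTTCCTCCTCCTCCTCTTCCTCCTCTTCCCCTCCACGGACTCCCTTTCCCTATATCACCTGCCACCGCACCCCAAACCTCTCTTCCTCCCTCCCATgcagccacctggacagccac
drebrin E (Dbn1-202): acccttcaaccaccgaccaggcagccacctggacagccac
The exon of drebrin A has a GC content of 58.7%. The drebrin E transcripts Dbn1-202 and Dbn1-203 join the same flanks directly, so a read across this join can separate A from E.

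The coding sequences of the beta-thymosins are short enough to print whole and show how far the paralogs can be told apart by reads. Capitals mark bases that differ from the paralog.
Tmsb4x (Tmsb4x-201): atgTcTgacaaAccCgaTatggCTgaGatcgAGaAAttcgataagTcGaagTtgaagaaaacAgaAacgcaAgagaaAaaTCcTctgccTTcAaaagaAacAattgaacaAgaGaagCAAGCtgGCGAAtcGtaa
Tmsb10 (Tmsb10-203): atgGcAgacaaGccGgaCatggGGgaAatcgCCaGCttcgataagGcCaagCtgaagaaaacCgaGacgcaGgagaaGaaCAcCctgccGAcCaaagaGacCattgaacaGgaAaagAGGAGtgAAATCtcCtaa
Both are 135 bases long with the stop codon and encode 44 residues. They matched at 95 of 135 bases (70.4%), and the longest run without a difference was 10 bases.

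The actins are the most alike pair, and their first coding bases hold the few codons by which the proteins mainly differ. Capitals again mark bases that differ.
Actb (Actb-201): atggaTgaCgaTatcgcTgcGctGgtcGtC
Actg1 (Actg1-202): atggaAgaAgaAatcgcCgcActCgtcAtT
Of these 30 bases 8 differed, and over the whole coding sequence 1000 of 1128 bases were identical (88.7%), with a longest identical run of 62 bases. The full-length profilins Pfn1-201 and Pfn2-201 matched at 260 of 423 coding bases (61.5%). The cofilins, compared through Cfl1-202 and Cfl2-201, which both encode 166 residues, matched at 358 of 501 bases (71.5%). All these sequences are those of the mm10 reference. The mice carry 1 set of chromosomes from a CAST parent, and no allele was separated.

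Actb, which encodes beta-actin (chr5:142903115-142906754, minus strand), was the most abundant of the 9 genes. It stood at 1812 and 1800 TPM in replicates 1 and 2 (1806 ± 8.72, SD, n = 2) and had rank 3 among nuclear protein-coding genes in both. Actg1, which encodes gamma-actin (chr11:120345690-120348542, minus strand), stood at 1245 and 1195 TPM (1220 ± 35.3) and had rank 6 in both. The ranges of the actins did not overlap, and Actb exceeded Actg1 by 1.46-fold in replicate 1 and 1.51-fold in replicate 2, a log2 ratio of 0.57 ± 0.03 (SD, n = 2).

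Of the genes that act on filaments, Cfl1, the main non-muscle cofilin (chr19:5490455-5495201, plus strand), stood at 970 and 971 TPM (971 ± 0.792). This was the smallest spread of the 9 genes by alignment-based TPM, but not in the alignment-free tables. There Cfl1 stood at 1489 and 1594 TPM (1541 ± 74.1). Cfl2, known as the muscle cofilin (chr12:54858809-54862877, minus strand), stood at 96.3 and 81.2 TPM (88.7 ± 10.7) and was the lowest of the 9. Cfl1 was thus 10.1-fold and 11.95-fold above Cfl2, a log2 ratio of 3.46 ± 0.18. Cfl1 also lay 7.55-fold above Dstn, the gene of the related filament-severing protein destrin (log2 ratio 2.92 ± 0.07).

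Of the genes of monomer-binding proteins, Tmsb10 (chr6:72957347-72958748, minus strand) stood at 809 and 785 TPM (797 ± 17.2). Tmsb4x (chrX:167207093-167209315, minus strand) stood at 729 and 649 TPM (689 ± 56.1). Tmsb10 was higher in each library, by 1.11-fold and 1.21-fold, but this order turned in the alignment-free tables, as given below.

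The profilins were lower than the thymosins, and the paralog enriched in brain was the higher. Pfn2 (chr3:57841895-57848079, minus strand), that paralog, stood at 280 and 259 TPM (270 ± 14.7). Pfn1 (chr11:70651850-70654644, minus strand), the ubiquitous profilin, stood at 146 and 147 TPM (146 ± 0.849). Pfn2 was 1.92-fold and 1.76-fold above Pfn1, a log2 ratio of Pfn1 to Pfn2 of -0.88 ± 0.09. This order is that of all transcripts of each gene and turned for the full-length transcripts alone, as given below. Dbn1 (chr13:55473429-55488111, minus strand) stood at 181 and 168 TPM (174 ± 9.26), between the profilins when all transcripts were counted. It was 4.19-fold above Dbnl, the gene of the drebrin-like protein found in many tissues (log2 ratio 2.07 ± 0.01).

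**Figure D1:**
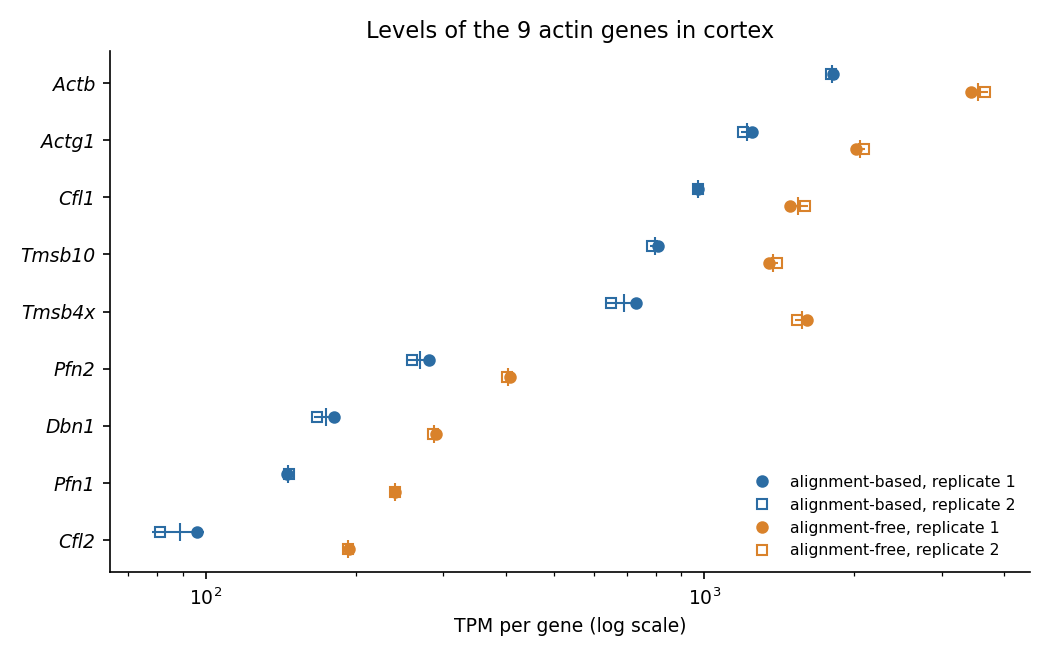
TPM per gene of the 9 genes on a log axis, in the alignment-based (blue) and alignment-free (orange) tables; filled circles are replicate 1, open squares replicate 2, and the bar is mean ± SD. Actb is highest and Cfl2 lowest in both tables, and the thymosins change places between them.

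The descending order was Actb, Actg1, Cfl1, Tmsb10, Tmsb4x, Pfn2, Dbn1, Pfn1 and Cfl2. All 8 pairs of neighbours in this order kept it in both libraries, and the TPM ranges of neighbours did not overlap. With coding transcripts only, an alternative added after the data were seen, Dbn1 fell below Pfn1, at 133 and 124 TPM against 144 and 145. The closest neighbours were Tmsb10 and Tmsb4x (1.16-fold) and Dbn1 and Pfn1 (1.19-fold), and the widest gap was between Tmsb4x and Pfn2 (2.55-fold). The deposited credible intervals of neighbours were also apart in both libraries. These intervals surround the posterior mean and not the TPM itself: the TPM of 6 genes lay above its interval in both libraries, and that of the other 3, Cfl2, Pfn1 and Dbn1, inside it. For Actb in replicate 1 the interval ran from 1726 to 1777 TPM, against a TPM of 1812.

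Summed per step of the cycle, the actins held 3025 ± 44.0 TPM, the thymosins 1486 ± 73.3, the cofilins 1060 ± 9.89, the profilins 416 ± 13.9 and drebrin 174 ± 9.26 (SD, n = 2). Together the 9 genes held 6267 and 6055 TPM, which was 1.23% and 1.249% of the TPM of nuclear protein-coding genes. The median of the 9 genes was 689 TPM, against a median of 3.87 TPM over all nuclear protein-coding genes. Relative to the summed actins, the thymosins stood at 49.1%, the cofilins at 35.0%, the profilins at 13.8% and drebrin at 5.75% of TPM. These are ratios of transcripts and say nothing of the amounts of protein.

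As log2 ratios to the summed actins, thymosins stood at -1.03 ± 0.05, cofilins at -1.51 ± 0.01, profilins at -2.86 ± 0.03 and Dbn1 at -4.12 ± 0.06. The order thymosin, cofilin, profilin, drebrin was that of TPM in both libraries and both sets of tables. By reads, which are not per length, the actins took 64.1% and 64.8% of all reads of the 9 genes, against 48.8% and 49.5% of their TPM. The thymosins, whose transcripts are the shortest, went from a log2 ratio of -1.03 by TPM to -2.65 by reads, below the cofilins at -2.34, so that by reads these classes changed places.

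**Figure D2:**
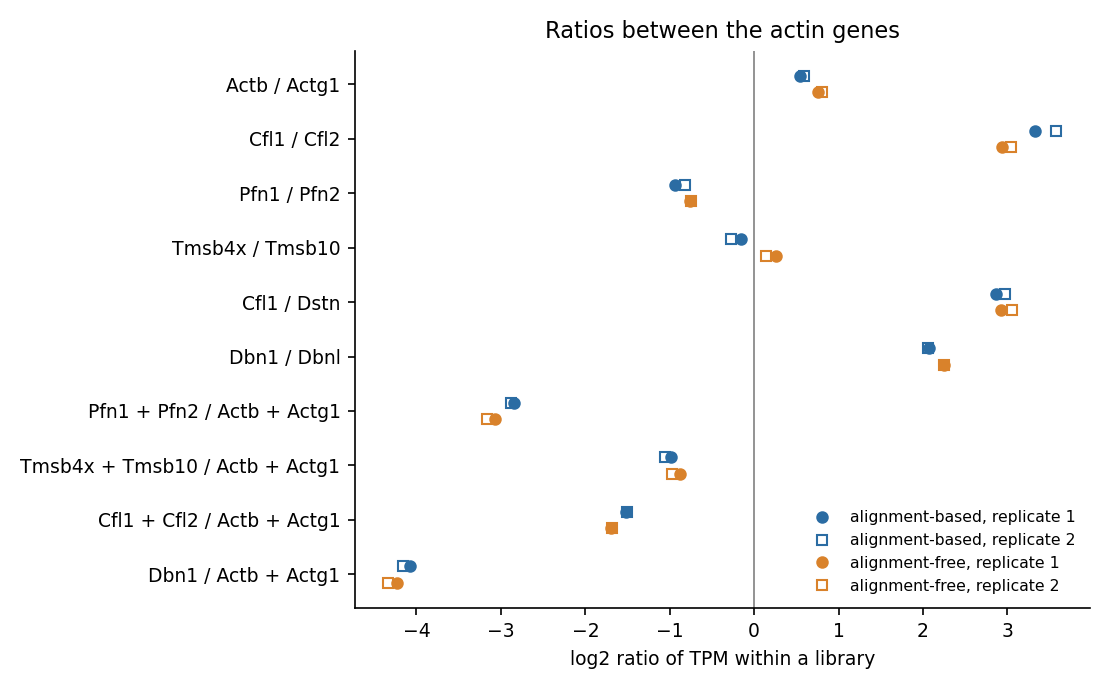
Log2 ratios of TPM within each library for 4 paralog pairs, 2 pairs with a related gene and 4 ratios to the summed actins; blue is alignment-based, orange alignment-free, filled circles replicate 1 and open squares replicate 2, and the vertical line marks equal levels. Points of the 2 libraries lie close together, and only Tmsb4x over Tmsb10 lies on different sides of the line in the 2 tables.

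The 9 genes have 52 annotated transcripts, of which 34 have a coding sequence and 18 do not. In the alignment-based tables the same transcript led in both libraries for 9 of 9 genes. In the alignment-free tables it did for 8 of 9, the exception being Cfl2, and the leading transcript was the same in both tables and both libraries for 7 of 9, the exceptions being Cfl2 and Tmsb10.

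Drebrin A was the larger of the drebrin forms at this age, and drebrin E was present beside it. Dbn1-201, which carries the exon shown above and encodes 706 residues, stood at 82.5 and 76.2 TPM. Dbn1-202, which lacks it and encodes 661 residues, stood at 47.0 and 47.0 TPM, and Dbn1-203, the other E form with 660 codons, was listed at 0. Drebrin A was 63.7% and 61.9% of the summed A and E transcripts, 62.8% ± 1.31 (SD, n = 2), or 1.76-fold and 1.62-fold above drebrin E. The alignment-free tables gave 62.0% and 60.3% (61.1% ± 1.24), with Dbn1-203 again listed at 0. The share of A in reads was 68.8% ± 1.20. The share compares whole transcripts: Dbn1-203 has the ends of Dbn1-201 and is shorter by the exon alone, while Dbn1-202, which held all of the drebrin E signal, also has other 5′ and 3′ ends.

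The coding transcripts were not all of Dbn1. Retained-intron transcripts, which keep intron sequence and have no annotated coding sequence, held 24.9% of its TPM, led by Dbn1-206 at 8.89% ± 0.0803, and 20.3% in the alignment-free tables. The short coding model Dbn1-207, of 169 codons, held 1.20% ± 0.745 of Dbn1 TPM in the alignment-based tables and 18.7% ± 0.0785 in the alignment-free ones. The share of this model thus depended on the table by far more than on the animal.

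Pfn2 was led by its shorter coding form. Pfn2-202 and Pfn2-204, which share 1 coding sequence of 91 codons, together held 61.6% and 58.2% of Pfn2 TPM (59.9% ± 2.38). Pfn2-201, which encodes the full-length profilin of 140 residues, held 36.2% and 39.9% (38.1% ± 2.59). The ranges of these forms did not overlap, and the alignment-free tables gave 57.6% ± 1.99 and 40.9% ± 2.29. For Pfn1 1 transcript, Pfn1-201 with 140 codons, held 97.0% ± 0.123 of the TPM, against 84.1% ± 9.13 in the alignment-free tables, where Pfn1-204, a transcript annotated for nonsense-mediated decay, took 19.9% in replicate 1 and 6.79% in replicate 2. Between the transcripts of 140 codons the order of the profilins turned. Pfn1-201 stood at 142 and 142 TPM and Pfn2-201 at 101 and 103. In the alignment-free tables they stood at 186 and 217 against 160 and 171 TPM.

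Most of the TPM of Cfl2 came from transcripts with no annotated coding sequence. Cfl2-203, a processed transcript with no coding sequence, led at 41.8 and 34.3 TPM, and all noncoding transcripts together held 68.3% ± 0.200 of Cfl2 TPM and 80.6% in the alignment-free tables. Cfl2-201, with 166 codons, stood at 30.7 and 25.6 TPM, 31.7% ± 0.200 of the gene. This transcript is 2940 bases long, and by reads it held the largest share of Cfl2 (60.9%). In the alignment-free tables Cfl2-203 led in replicate 1 (33.9%) and Cfl2-204, also noncoding, in replicate 2 (26.3%).

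The ratio of the cofilins depended on which transcripts were counted. With coding transcripts only, an alternative added after the data were seen, Cfl1 stood at 969 and 969 TPM and Cfl2 at 30.7 and 25.6, a log2 ratio of 5.11 ± 0.18 or 34.5-fold, against 3.46 with all transcripts. Cfl1 itself was shared by Cfl1-201 (57.9% ± 1.251) and Cfl1-204 (39.2% ± 1.19), with Cfl1-202, the transcript of 166 codons, at 2.81%. Cfl1-201 is annotated with 227 codons and has 2 gaps of 2 bases between its annotated exons, while its shortest other intron is 149 bases. Its reads were therefore not read as a longer cofilin.

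The thymosin genes each made nearly a single coding sequence. Tmsb10-201, Tmsb10-202 and Tmsb10-203 share the coding sequence printed above and together held 99.2% of Tmsb10 TPM, or 99.4% in the alignment-free tables. The tables placed it on different transcripts: Tmsb10-203 held 98.4% ± 0.134 in the alignment-based tables and 6.95% ± 1.21 in the alignment-free ones, where Tmsb10-202 held 92.4% ± 1.26. Tmsb4x-201 held 98.8% ± 0.366 of Tmsb4x TPM, against 91.9% ± 0.428.

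The full-length actin transcripts held most of the TPM of both actin genes in the alignment-based tables and less in the alignment-free ones. Actb-201, with 375 codons, held 88.0% ± 0.232 of Actb TPM against 53.0% ± 1.16, and the shorter coding model Actb-208, with 265 codons, held 4.05% against 28.9%. Actb-202, with 150 codons, held 6.62% against 12.8%. For Actg1 the full-length models Actg1-202 and Actg1-204, with the same 375-codon sequence, together held 98.8% ± 0.200 against 75.1% ± 1.30, and Actg1-205, with 268 codons, held 0.279% against 24.3%.

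**Figure D3:**
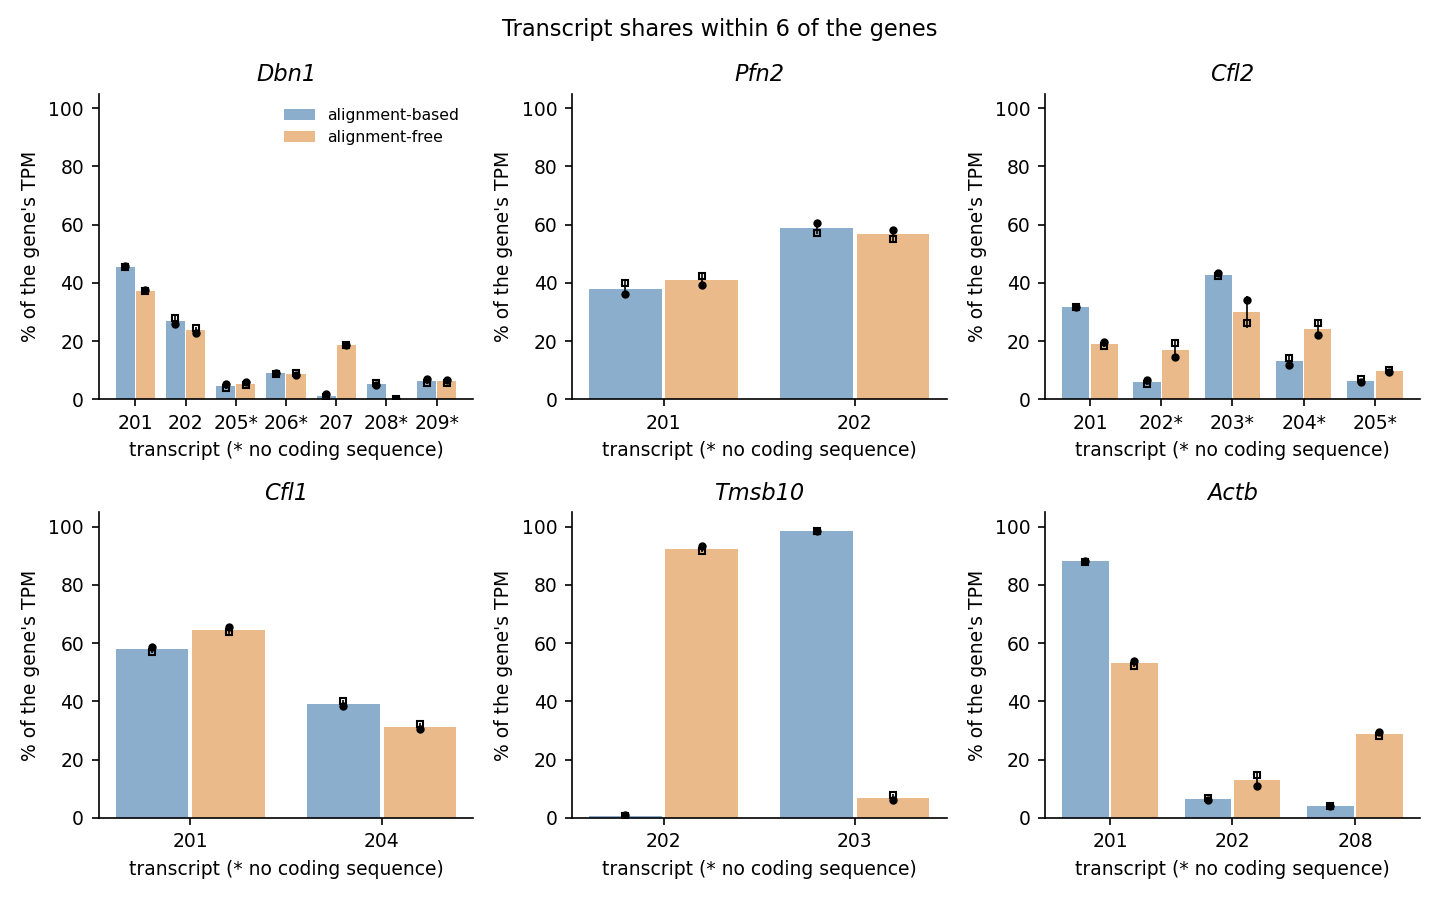
Share of the gene's TPM held by each transcript that reached 5% in some library, for Dbn1, Pfn2, Cfl2, Cfl1, Tmsb10 and Actb; bars are means, error bars SD (n = 2), filled points replicate 1 and open points replicate 2, blue alignment-based and orange alignment-free, and an asterisk marks a transcript with no coding sequence. The tables lie close for Pfn2 and Cfl1 and apart for Tmsb10, Actb and Dbn1-207.

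Between the libraries the 9 genes differed little. Over 16467 genes with a mean of at least 20 reads, 15.6% were apart between the libraries by at least 0.32 on the log2 scale and 6.07% by at least 1.5-fold, after scaling of the reads by TMM (trimmed mean of M values). Of the 9 genes 0 passed either limit, and no test stands behind this count. The background was not matched for read depth: it starts at a mean of 20 reads, while Pfn1, with the fewest reads of the 9, had 2117 and 2328. The widest difference was that of Cfl2, which had 2678 and 2453 reads and was 1.10-fold lower in replicate 2. Tmsb4x, with 9134 and 8893 reads, was 1.04-fold lower. The other 7 genes were higher in replicate 2, from 1.01-fold for Pfn2 and Dbn1 to 1.09-fold for Pfn1.

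The direction of such small differences depended on the scale. By TPM, 7 of the 9 genes were lower in replicate 2, and when the reads were scaled by their totals 5 were higher. Nuclear protein-coding genes held 50.8% of all TPM in replicate 1 and 48.5% in replicate 2. In whole tissue, fewer cells of a type and less RNA per cell cannot be told apart. Mbp, the gene of myelin basic protein, moved more than any of the 9 and was 1.95-fold higher in replicate 2, at 90.0 and 181 TPM, while Pdgfra, which marks oligodendrocyte precursors, was 1.09-fold lower. All 3 genes of the blood list were past 0.32 on the log2 scale, in different directions: the globin genes Hbb-bs (240 and 282 TPM) and Hba-a1 (200.3 and 258 TPM) were higher in replicate 2, and the leukocyte gene Ptprc (1.13 and 0.860 TPM) was lower. The part of these cells in the differences of the 9 genes was not tested.

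Alignment-free TPM were higher than alignment-based TPM for all 9 genes in both libraries. They were also higher for most of the 10525 genes with at least 10 TPM in either table. The median fold over these 10525 genes was 1.47 in replicate 1 and 1.55 in replicate 2, and 8.81% of them lay at least 1.5-fold from that median in both libraries. Among the 9 genes 1 did, Tmsb4x. Pfn2 lay nearest to the median, at 1.45-fold and 1.55-fold.

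Tmsb4x stood at 1606 and 1537 TPM in the alignment-free tables (1572 ± 49.1), which was 2.20-fold and 2.37-fold its alignment-based level. Tmsb10 stood at 1348 and 1396 (1372 ± 34.5), 1.67-fold and 1.78-fold. The log2 ratio of Tmsb4x to Tmsb10 was therefore -0.15 and -0.27 in the alignment-based tables and 0.25 and 0.14 in the alignment-free ones. Each table gave the same direction in both animals, and the tables gave opposite directions. By reads Tmsb4x was the higher (log2 ratio 0.29).

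Reads and lengths entered this difference separately. For Tmsb4x the alignment-free tables held 1.18-fold and 1.20-fold the reads (10755 against 9134 in replicate 1), while for Tmsb10 they held 0.986-fold and 0.992-fold. Effective length is transcript length less a correction for the ends, and the alignment-based and alignment-free tables made different corrections. For Tmsb4x-201, of 768 bases, it was 669 and 420 bases in replicate 1. The effective length of the whole gene Tmsb4x was 670 bases in the alignment-based and 428 bases in the alignment-free table of replicate 1, a 1.56-fold difference. That of Tmsb10 was 471 and 334 bases, a 1.41-fold difference. The length of a gene is an average over its transcripts weighted by their TPM, so it also depends on which transcript leads. Tmsb10-203 alone had 471 and 226 bases in replicate 1. Tmsb10-202, which led Tmsb10 in the alignment-free tables, had 591 and 342. The part of this assignment in the turned order of the thymosins was not tested. For the other 7 genes, reads differed by 1.08-fold or less apart from Pfn1, which held 0.883-fold and 0.854-fold the reads in the alignment-free tables, and effective lengths differed by 1.14-fold (Pfn2) to 1.78-fold (Cfl2 in replicate 2).

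**Figure D4:**
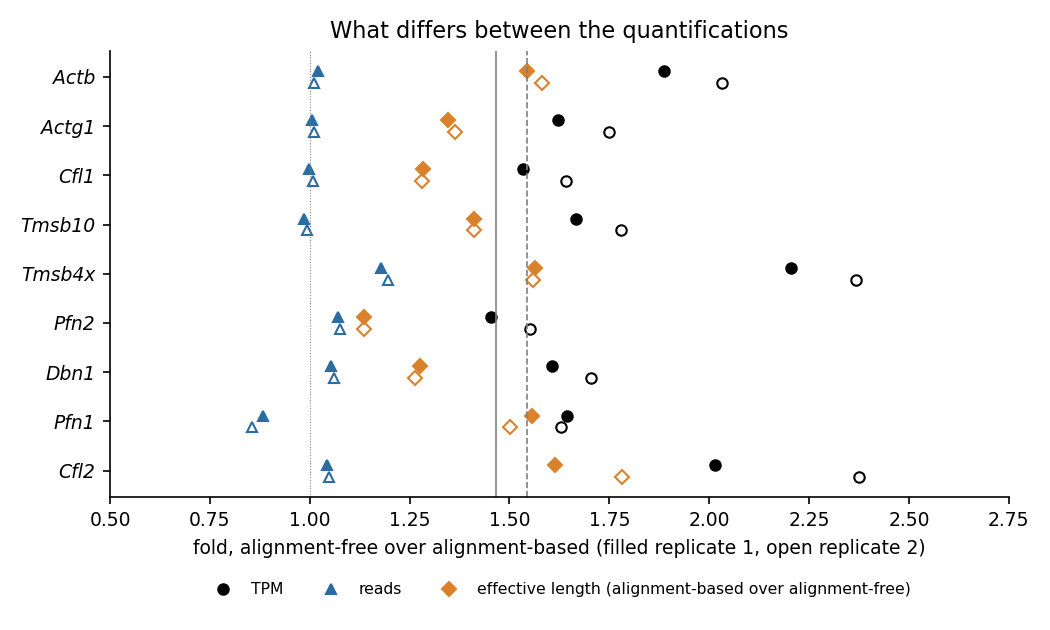
Fold between the tables per gene for TPM (black circles), reads (blue triangles) and effective length (orange diamonds, alignment-based over alignment-free); filled symbols are replicate 1 and open ones replicate 2, and grey vertical lines mark the median TPM fold of all genes in replicate 1 (solid) and 2 (dashed). Reads lie near 1 for most genes, with Tmsb4x above and Pfn1 below, while effective lengths lie between 1.14 and 1.78.

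Sequence shared with other genes bears on how well reads can be assigned. Of the distinct 31-base words in its transcripts, Actg1 shared 40.2% with transcripts of other genes, Tmsb10 32.0%, Actb 23.5%, Cfl1 13.2% and Pfn1 0.329%. Cfl2, Pfn2, Tmsb4x and Dbn1 shared 0. Actg1 shared most with its processed pseudogenes Gm12715 and Gm8399, and Gm8399 was listed at 2363 and 2691 reads in the alignment-based tables and 1179 and 1326 in the alignment-free ones. Pseudogenes that share any word with Actg1 had in all 3138 and 3599 reads, or 7.34% and 8.01% of the reads of Actg1. Those that share any word with Actb had 3164 and 3637 reads, or 5.56% and 5.90% of the reads of Actb. A pseudogene that shares words with both actins counts in both shares, so the shares cannot be added. In the alignment-free tables these shares were lower, 4.34% and 4.59% for Actg1 and 3.09% and 3.22% for Actb. How reads divide between the actins and these copies is uncertain.

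Actb shared the most words with Lrrc58, a protein-coding gene, and with the pseudogene Gm15725. Lrrc58 was listed at 7921 and 8114 reads in the alignment-based tables and 8406 and 8568 in the alignment-free ones. Cfl1 shared words with 383 other genes, most with Gm6180 and Gm8682, whose reads were 28.5 or fewer in each library. Tmsb10 shared words with Gm9844 and Gm3788, and its pseudogenes together had 7.73 and 3.49 reads. Cfl1 also overlaps exons of the antisense gene Snx32, listed at 37.9 and 36.1 TPM, and Cfl2 those of the antisense gene 1700081N11Rik, listed at 0 and 1 reads. The sources used here do not say whether the counting used strand, and reads in the overlaps could belong to either gene.

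A CArG box, the binding motif of serum response factor, which is known to drive actin genes, was searched on both strands in the 300-base RefSeq promoter windows (GRCm38.p6) of the members; Actb has no entry. It was found in 1 of the 8 genes with an entry, Actg1, where it begins 90 bases before the RefSeq start, at chr11:120348566-120348595 on the minus strand with 10 flanking bases on each side and the box in capitals.
Actg1 promoter: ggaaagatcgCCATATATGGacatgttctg
Of all 32851 promoter windows 535 (1.63%) hold such a box. Counted per gene, as for the members, 488 of 27025 genes with an entry (1.81%) hold one. Srf, the gene of the factor itself, stood at 21.6 ± 0.785 TPM, and its cofactor genes Mrtfa and Mrtfb at 20.5 ± 1.53 and 57.4 ± 1.36 TPM. Binding was not measured.

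The 9 genes stood high among the 102 other genes of the actin system that were listed by role. Of these, 97 reached 1 TPM in both libraries, and their median was 40.5 ± 1.44 TPM, against 13003 of 22015 nuclear protein-coding genes and a median of 3.87 TPM. By mean alignment-based TPM, none of the 102 exceeded Actb, Actg1, Cfl1, Tmsb10, Tmsb4x or Pfn2, while 7 exceeded Dbn1, 14 exceeded Pfn1 and 30 exceeded Cfl2. A mean of at least 20 reads was also reached by 97 of the 102, but these are not all the same genes. Of them 5 were past 0.32 on the log2 scale between the libraries and 1 past 1.5-fold. Of all genes 15.6% and 6.07% were, a background not matched for read depth. The gene past 1.5-fold was Gsn, which encodes the severing and capping protein gelsolin, with 657 and 1017 reads (1.53-fold higher in replicate 2).

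By role, the Arp2/3 complex, which nucleates branched filaments, had the highest median (113 ± 5.31 TPM), from Arpc1b at 14.4 to Arpc4 at 160 TPM. Activators of Arp2/3 had a median of 60.6 ± 0.290 and were led by Abi2 at 235 TPM, with Wasf2 lowest at 13.01. The formins, which nucleate unbranched filaments and take monomers from profilin, had a median of 16.5 ± 0.495, from Diaph3 at 2.83 to Daam1 at 45.4 TPM.

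Among genes of filament ends, Tmod2, the neuronal tropomodulin that caps pointed ends, was the highest of all 102 at 241 ± 8.94 TPM, and its paralog Tmod1 the lowest of that group at 5.12. Crosslinkers ran from Lcp1 at 4.33 to Fscn1, which bundles filaments in growth cones, at 223 ± 2.53 TPM. Coronins ran from Coro2a at 21.6 to Coro1a at 93.4 TPM, and tropomyosins from Tpm2 at 2.96 to Tpm3 at 128 TPM. Of the other binders of spine actin, Ppp1r9b, which encodes spinophilin, stood at 197 ± 7.64 TPM, above Dbn1 in both libraries, and Synpo at 40.2 TPM. In the alignment-free tables Ppp1r9b stood at 265 and 295 TPM and Dbn1 at 290 and 285, so the order there differed between the libraries.

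Destrin and the regulators of cofilin had a median of 33.0 ± 0.431 TPM. Dstn was the highest at 129 ± 6.26 TPM, and Tesk2, a kinase, was the lowest at 0.960 TPM. Paralogs of the members themselves were mostly low: Acta2, the smooth muscle actin, stood at 7.92 ± 0.636 TPM and Acta1, the skeletal muscle actin, at 3.58 ± 0.120 TPM, and Actg2, Actc1 and Pfn3 stayed under 1 TPM. Tmsb15b2 was the highest of these paralogs at 23.4 TPM, and Tmsb15a was listed at 0 with 0 reads.

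**Figure D5:**
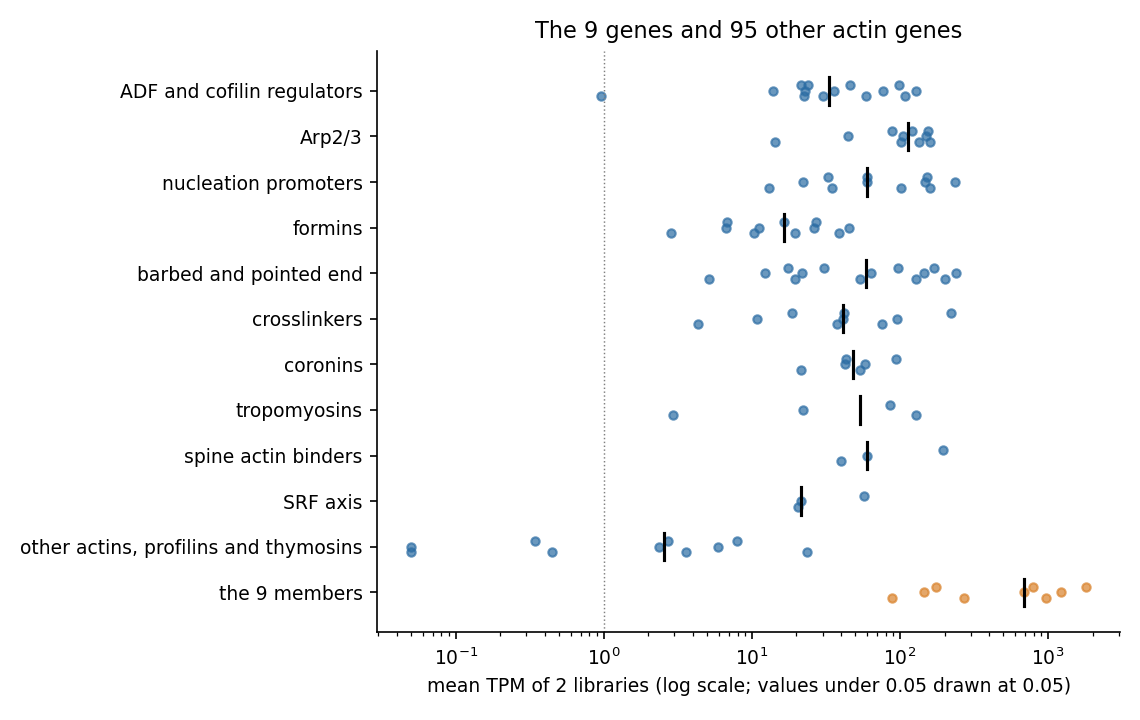
Mean TPM of the 2 libraries on a log axis for 95 of the 102 listed actin genes by role (blue) and the 9 genes described here (orange); black bars are medians and the dotted line is 1 TPM. The 9 genes have a median of 689 TPM, and the other actins, profilins and thymosins a median of 2.54 TPM.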

How the data were processed

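Total RNA of the left cerebral cortex was sequenced from 2 mice. The authors deposited, per library, gene and transcript tables of expected counts and TPM made from alignments to assembly mm10 with annotation M21, and alignment-free transcript tables of estimated counts and TPM made from the reads, per the deposited README files. The tools, their versions and the credible level were not given in the sources used here. TPM is scaled over all rows, spike-ins included, so it moves with the share of noncoding RNA. Alignment-free values were summed per gene. The members and lists were chosen with earlier results of these data known. Ratios were log2(TPM + 0.1). Reads were rounded and scaled by TMM in edgeR 4.0.16; genes needed a mean of 20 reads. DESeq2 1.42.0 size factors, totals, spike-in reads and the other tables were alternatives. Fold calculations were tested on simulated data. Genes were named by rule: all members, the highest and lowest of each role, genes under 1 TPM or over 1.5-fold apart, transcripts of at least 5% of a member, every coding Dbn1 transcript, and up to 2 genes sharing the most 31-base words with a member; spine, Srf and marker genes beyond it were named for context after their values were seen. The values of 1 marker gene and 1 role of the list are not reported here. Counts of 3 reads were taken as the floor, and replicates may share litter or preparation.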

Additional observations from a re-analysis of the deposited data

How the results depend on the processing

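Of the 10 ratios within a library, 9 kept their sign under every alternative run; Tmsb4x over Tmsb10 (main log2 -0.21) turned to 0.20 with alignment-free TPM and to 0.29 with expected counts. The full-length profilin transcripts alone, whose order turned as given above, were not among these alternatives. With alignment-free TPM the summed level of the 9 genes was 11202 TPM, against 6161, and the log2 ratios moved to 0.78 (Actb/Actg1), 2.99 (Cfl1/Cfl2), -0.76 (Pfn1/Pfn2), 2.25 (Dbn1/Dbnl), -3.12 (profilins to actins), -0.93 (thymosins to actins), -1.69 (cofilins to actins) and -4.28 (Dbn1 to actins). With expected counts, not per length, they were 0.43 (Actb/Actg1), 2.79 (Cfl1/Cfl2), -2.19 (Pfn1/Pfn2), 1.96 (Cfl1/Dstn), 2.23 (Dbn1/Dbnl), -3.06, -2.65, -2.34 and -3.75 for profilins, thymosins, cofilins and Dbn1 to actins. With coding transcripts only, added after the data were seen, they were 5.11 (Cfl1/Cfl2), 1.63 (Dbn1/Dbnl), -1.58 (cofilins to actins) and -4.54 (Dbn1 to actins). Dbn1/Dbnl, whose SD was 0.01, also moved to 2.04 with a pseudocount of 1 and 2.08 with posterior mean TPM.

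The sum of the 9 genes was 12410 TPM when scaled over nuclear protein-coding genes, which leaves out the other RNAs, and 5963 with posterior means. The share of drebrin A was 61.1% with alignment-free TPM and 68.8% of expected counts. The median of the wider actin genes was 60.6 TPM in the alignment-free tables. Without the filter on low counts, 11907 genes were past 0.32 (log2) and 8998 genes past 1.5-fold between libraries, against 2575 and 999, since genes with few reads enter. Without the filter on low values, 12693 genes and 8 of the 9 members lay 1.5-fold from the median between tables, against 927 and 1; the median fold over all 55450 genes was then 1, because genes at 0 in both tables enter. Leaving out either library gave 1 to 2 members past that fold, with 2 when replicate 1 was left out. In all, 23 of 45 values of single levels and 19 of 44 of single transcript shares moved by more than 1 SD of the 2 libraries. These totals include the values with 1 library left out, which lie within 1 SD by construction and could not count as moved. The causes of the moves were not tested. No paired analysis was possible because both libraries belong to 1 group. Counting error is small at these depths, but 2 animals limit every SD.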
